A study of Mus musculus with 22 samples.

Results

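The genes that copy DNA and supply its building blocks were followed in cultured neural stem cells after the enzyme OGT was lowered or inhibited. The set holds 47 named genes, grouped by the complex or pathway step they serve: origin licensing, the MCM helicase and its activators, the replicative polymerases, the sliding clamp and its loader, lagging strand maturation, single-strand DNA binding, deoxynucleotide supply, and histone mRNA handling with chromatin assembly. Members were chosen by gene symbol, and all 47 were found among the 24411 genes of each deposited table.

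RNA was sequenced from primary adult mouse hippocampal neural stem cells, grown attached in a medium with the mitogens EGF and bFGF. OGT, the O-GlcNAc transferase, decorates proteins of the nucleus and cytosol with a sugar, N-acetylglucosamine. In the knockdown arm, cells received lentivirus at 10 viral particles per cell for 3 days, encoding a short hairpin RNA against Ogt (ShOgt, 5 libraries) or a ShLuc control hairpin (6 libraries). In the inhibitor arm, cells received 12.5 µM OSMI-1, an inhibitor of OGT, for 24 h (5 libraries), or an equal volume of the solvent DMSO (Vehicle, 6 libraries). All 22 libraries share the culture medium, and both hairpin groups carry the virus. The labels give no strain, age, sex or number of animals, and nothing in them shows that the libraries within a group are separate cultures. The p-values below therefore reflect only how these libraries vary, and that variation may be technical.

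Replication begins in G1, when the origin recognition complex, CDC6 and CDT1 load the ring-shaped MCM2-7 helicase onto DNA, a step called licensing that geminin blocks for the rest of the cycle. In S phase CDC45 and the GINS complex join MCM2-7 to form the active helicase. Polymerase alpha with primase then lays primers, and polymerases delta and epsilon extend them, held on DNA by the PCNA clamp. Many of these genes are transcribed as cells enter S phase, under control of the E2F transcription factors, and they are low in cells that have left the cycle. Adult hippocampal stem cells are mostly quiescent in the animal and divide in culture with EGF and bFGF.

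Reads per library ran from 7.22 to 13.2 M for the ShLuc and ShOgt libraries and from 4.52 to 12.8 M for the Vehicle and OSMI-1 libraries. Values are the authors' normalized counts, that is reads divided by a scaling factor of the library, and the arms were normalized separately. Ogt was at 836 ± 89.8 normalized counts (SD, n = 6) in ShLuc and 424 ± 63.9 (n = 5) in ShOgt, and at 455 ± 37.6 in Vehicle and 599.9 ± 42.5 in OSMI-1. The stem cell genes Nes, Vim, Slc1a3 and Fabp7 were abundant in both arms, whereas Hes5 and Msi1 did not pass the filter on low counts in either. Of 8 microglia markers none passed that filter, and their summed level stayed between 5.60 and 19.8 in the knockdown arm and between 6.02 and 21.5 in the inhibitor arm. Cx3cr1 and C1qa were at 0 in every knockdown-arm library, and Aif1 in every inhibitor-arm library. Of 8 endothelial and mural markers 2 passed in the knockdown arm, where Tek rose, and 1 in the inhibitor arm, Acta2, which was not called. Of 6 neuron markers 3 passed in each arm, with 1 lower and 1 higher in each. Of 6 astrocyte markers 5 passed after knockdown (1 lower) and 4 after OSMI-1 (2 higher). Of 7 oligodendrocyte lineage markers 4 passed after knockdown and 3 were lower, with a summed level of 17773 to 20743 in ShLuc and 10012 to 11543 in ShOgt. In the inhibitor arm 5 of these passed, 1 lower and 1 higher, with sums of 9716 to 12283 in Vehicle and 10943 to 14663 in OSMI-1. The part of any of these in the results below was not tested. An earlier analysis of these data described ShLuc 1, ShLuc 3, ShOgt 3, Vehicle 1 and OSMI-1 5 as standing apart from their groups, and counts without them are given beside the main ones.

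Promoter sequences are shown first because the members moved together and E2F proteins are known to bind short words of the form TTTCCCGC, TTTGGCGC or TTTCGCGC. RefSeq promoters (build GRCm38.p6, 250 bases before to 50 after each start) were matched for 39 of the 47 members. No entry was matched for Gmnn, Mcm4, Gins1, Gins2, Gins4, Prim2, Pole or Rfc2. On either strand 15 of the 39 genes (38.5%) held at least 1 of these words in a promoter. By gene, the share was 2.12% of all 27025 genes in the promoter table and 4.19% of the 9304 matched genes tested in these data. By promoter, it was 1.84% of all 32851 in the table. The words can overlap on opposite strands, as they do in Mcm5 and Mcm6. The letters below run 5′ to 3′ on the gene's strand, and the capitals mark an E2F-type word read on either strand.
Cdc6: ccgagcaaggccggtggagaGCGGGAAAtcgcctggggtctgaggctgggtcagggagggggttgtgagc
Mcm5: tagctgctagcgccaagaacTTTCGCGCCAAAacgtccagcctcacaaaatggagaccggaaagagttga
Mcm6: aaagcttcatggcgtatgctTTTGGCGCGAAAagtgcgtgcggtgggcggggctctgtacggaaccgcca
Pola1: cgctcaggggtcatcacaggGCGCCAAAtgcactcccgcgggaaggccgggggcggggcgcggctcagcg
Orc1: cggttagtgGCGCGAAAagttttctcctgt
Cdt1: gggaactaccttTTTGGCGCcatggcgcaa
Gins3: gagtgcggcGCGGGAAAgcgagtttgaagc
Rfc3: gtcgcacgcTTTCGCGCtcGCGGGAAAact

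On GRCm38.p6 these stretches lie at chr11:98907993-98908062 (plus strand), chr8:75109336-75109405 (plus strand), chr1:128359766-128359835 (minus strand), chrX:93632244-93632313 (minus strand), chr4:108579418-108579447 (plus strand), chr8:122568035-122568064 (plus strand), chr8:95633509-95633538 (plus strand) and chr5:151651198-151651227 (minus strand), in the order shown. In Cdc6 and Pola1 the word begins 138 bases upstream of the start in the RefSeq table, in Mcm5 153 bases and in Mcm6 110 bases upstream. The gene spans given further on are those of GENCODE M21, whose Cdc6 begins upstream of the RefSeq start, so that the Cdc6 stretch lies inside that span. The stretches of Cdc6, Mcm5, Mcm6 and Pola1 lie outside the exons of GENCODE M21, and the shorter ones of Orc1, Cdt1, Gins3 and Rfc3 overlap an exon. The other 7 promoters with a word were those of Mcm3, Mcm7, Mcm8, Pold1, Pold3, Pole2 and Lig1. The CCAAT word, bound by NF-Y, was in 64.1% of the members' promoters and in 43.6% of those of tested genes. The word TTTGAA, part of the element that represses cell cycle genes in G1, was in 12.8% and 13.8%. A match is a description of letters and was not tested as a site.

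After Ogt knockdown nearly the whole set was lower. Of the 47 members, all of which passed the filter on low counts, 42 fell and none rose at a limma adjusted p under 0.05, and the other 5 (Orc2, Orc6, Rfc1, Rpa3 and Slbp) did not pass. Over all 12136 genes tested, 16.4% were called lower and 15.4% higher. The median log2 fold change of the members, ShOgt over ShLuc, was -0.86, beside 0.01 over all genes tested. On this scale 13 members were called and fell to less than 50% of the control, as did 262 of all 12136 genes tested. In 39 members every ShOgt library lay below every ShLuc library, a pattern found in 9.96% of all genes tested. At an unadjusted p under 0.05 none was higher either, and edgeR and DESeq2 called none higher. Without the libraries that stand apart 42 members fell, with a median of -0.84.

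After 24 h of OSMI-1 the picture was similar in direction. Here 44 members fell and none rose, and the remaining 3 (Gins3, Rfc1 and Rpa3) did not pass. Of all 11349 genes tested, 13.2% were called lower and 11.6% higher. The members' median log2 fold change, OSMI-1 over Vehicle, was -0.75, beside 0.00 over all genes tested. Here 10 members were called and fell to less than 50%, as did 294 of all 11349 genes tested. In 40 members every OSMI-1 library lay below every Vehicle library, against 7.71% of all genes tested. No member was higher at an unadjusted p under 0.05, nor by edgeR or DESeq2. Without the libraries that stand apart 41 fell, with a median of -0.68.

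The genes lower in both arms numbered 41, and over all 11269 genes tested in both, 636 (5.64%) were. The arms share no library. Across the 47 members the log2 fold changes of the arms had a Pearson r of 0.46, against 0.16 across all genes tested in both, given as a description since genes are not independent. Genes that mark dividing cells fell beside them. Mki67 went from 1286 ± 155 to 636 ± 122 normalized counts after knockdown and from 738 ± 169.8 to 287 ± 49.0 after OSMI-1 (SD, n = 6 and 5). The mitotic cyclin Ccnb1 had log2 fold changes of -0.77 and -1.59, and the S and G2 cyclin Ccna2 of -1.0 and -1.61. In these bulk libraries fewer cycling cells and less of these RNAs per cell cannot be told apart.

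**Figure D1:**
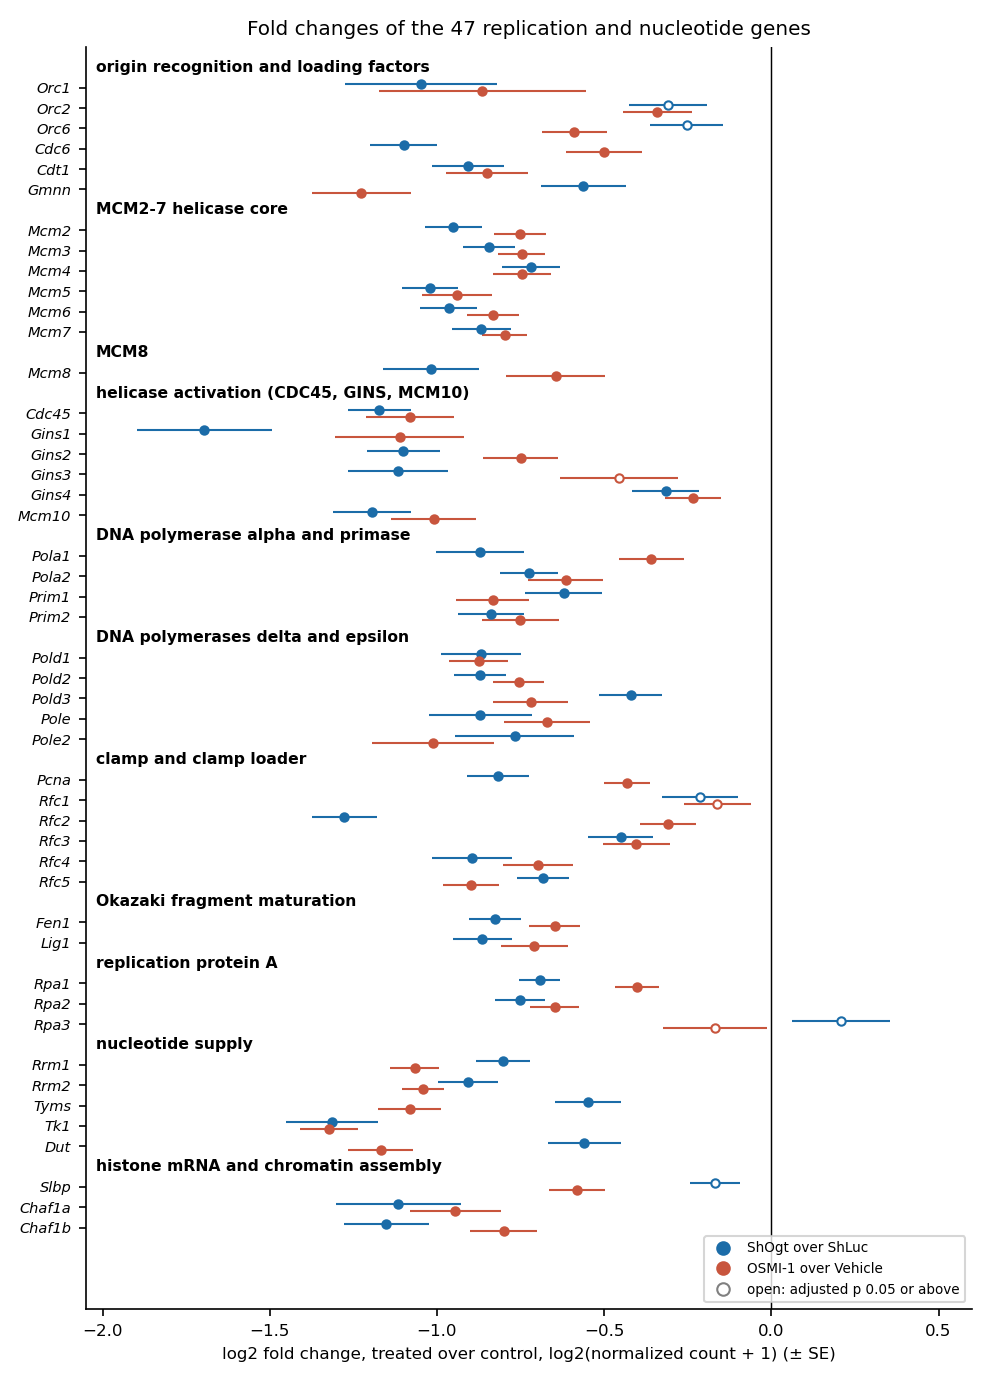
Log2 fold change of each of the 47 members, treated over control, with its standard error, by complex or pathway step (blue: ShOgt over ShLuc, red: OSMI-1 over Vehicle). Filled points passed the adjusted p of 0.05 (42 blue and 44 red), and all of these lie left of 0.

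Every treated library showed the drop. Values for single libraries are given here in the order ShOgt 1, 2, 3, 5 and 6 and OSMI-1 1, 2, 4, 5 and 6. In log2 units from the control mean of each gene, the median over the 47 members lay between -0.08 and 0.11 in the ShLuc libraries. The 5 ShOgt libraries had -0.96, -0.76, -0.71, -0.69 and -0.97. The ShOgt libraries numbered 1 and 6 were the lowest and the groups lay far apart. Vehicle libraries had medians of -0.07 to 0.11, and the OSMI-1 libraries -0.72, -0.70, -0.72, -0.87 and -0.71, with OSMI-1 5 the lowest. As a share of all reads, the 47 genes took 0.687 to 0.764% in ShLuc and 0.381 to 0.461% in ShOgt, and 0.515 to 0.588% in Vehicle and 0.310 to 0.349% in OSMI-1.

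**Figure D2:**
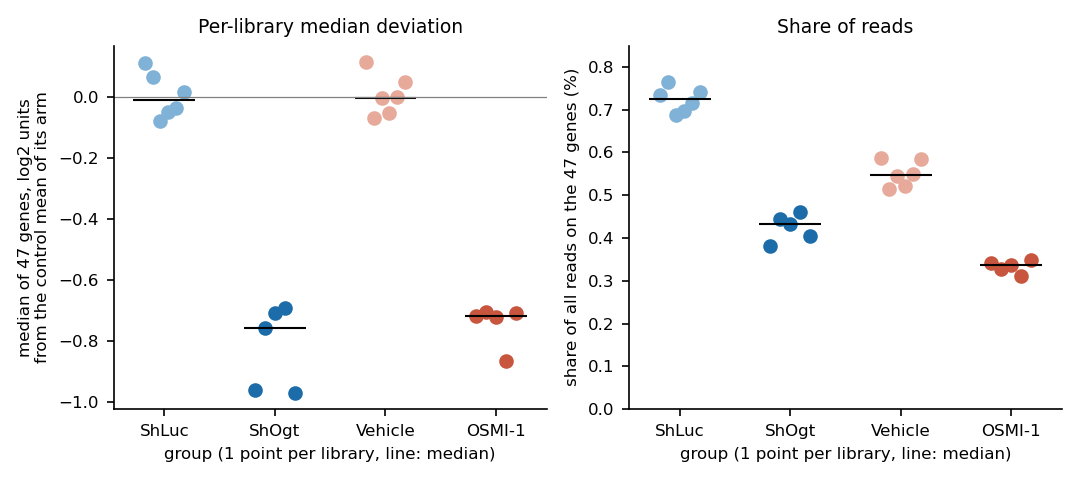
Left, the median over the 47 members of the deviation from the control mean in log2 units, and right, the share of all reads on these genes in percent, 1 point per library with the group median as a line. Treated libraries lie below all control libraries of their arm in both panels.

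Origin licensing genes fell unevenly. Of the 6 members, Orc1, Cdc6, Cdt1 and Gmnn fell after knockdown and all 6 fell after OSMI-1, with list medians of -0.74 and -0.72. CDC6, the ATPase that brings the helicase to the origin, is encoded at chr11:98907801-98923940 (GRCm38). Its counts in ShLuc ranged from 691 to 913 with a median of 794, and the ShOgt libraries held 349, 414, 412, 353 and 347. All 5 were below the lowest control, a 2.15-fold drop (log2 fold change -1.10 ± 0.10 (SE), limma adjusted p = 1.14e-07). In the inhibitor arm Vehicle ranged from 216 to 327 with a median of 259 and OSMI-1 held 198, 169, 179, 202 and 183. These did not overlap either, with a smaller drop of 1.43-fold (log2 fold change -0.50 ± 0.11 (SE), limma adjusted p = 0.0022). The loading factor Cdt1 had log2 fold changes of -0.91 and -0.85.

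Geminin, which binds CDT1 and prevents a further round of licensing, showed the reverse balance. Gmnn counts ranged from 217 to 289.8 with a median of 235 in ShLuc and were 150.3, 171, 147, 162 and 185 in ShOgt. The ranges did not overlap, and the drop was 1.48-fold (log2 fold change -0.56 ± 0.13 (SE), limma adjusted p = 0.00204). In Vehicle they ranged from 152 to 200.2 with a median of 161, and OSMI-1 libraries held 49.2, 80.1, 68.9, 77.6 and 79.0. All OSMI-1 libraries lay far below the lowest control, a 2.33-fold drop (log2 fold change -1.23 ± 0.15 (SE), limma adjusted p = 1.53e-06). Vehicle 1 was the highest of its group.

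Orc2 and Orc6, subunits of the origin recognition complex, had the smallest changes of the licensing genes after knockdown. Orc2 ranged from 361 to 479.8 with a median of 455 in ShLuc and was 332, 359, 279.5, 404 and 414 in ShOgt, with ShOgt 5 and 6 inside the control range. Its change did not pass (log2 fold change -0.31 ± 0.12 (SE), limma adjusted p = 0.0509), although it did under 7 of 19 alternatives. Among them were leaving out ShLuc 3, ShOgt 5 or ShOgt 6 (adjusted p from 0.0223). With all libraries kept, it passed by DESeq2 (adjusted p = 0.0424), with TMM scaling (0.0433) and with the replicate block (0.0380). Orc2 in Vehicle ranged from 335 to 504 with a median of 364 and OSMI-1 held 309, 309, 273, 296 and 325, all below the controls (log2 fold change -0.34 ± 0.10 (SE), limma adjusted p = 0.0177). That call was lost without Vehicle 1 and OSMI-1 5 together (adjusted p = 0.070).

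Orc6 in ShLuc ranged from 398 to 567 with a median of 444, and the ShOgt libraries held 355, 359, 368, 379.9 and 452. The high value is ShOgt 6, which lies inside the control range, and the change did not pass (log2 fold change -0.25 ± 0.11 (SE), limma adjusted p = 0.0859). Without ShOgt 6 it did (adjusted p = 0.0415). In Vehicle Orc6 ranged from 371 to 479.9 with a median of 440.4 and in OSMI-1 it was 297, 298, 241, 283 and 313. These groups were apart, a 1.51-fold drop (log2 fold change -0.59 ± 0.10 (SE), limma adjusted p = 7.34e-05). Orc1, the largest subunit, fell 2.06-fold after knockdown (log2 fold change -1.05 ± 0.23 (SE), limma adjusted p = 0.00145). In the inhibitor arm Orc1 ranged from 28.6 to 50.04 with a median of 36.5 in Vehicle and was 26.4, 31.4, 25.4, 7.16 and 19.5 in OSMI-1. The groups overlapped and OSMI-1 5 was the lowest library (log2 fold change -0.86 ± 0.31 (SE), limma adjusted p = 0.0435). That call was lost under 10 of 19 alternatives, at adjusted p from 0.056 to 0.24. These were edgeR, no filter on low counts, leaving out Vehicle 1 and OSMI-1 5 together, and leaving out any of Vehicle 1, 2, 3, 4 or 6 or OSMI-1 5 or 6.

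The helicase core moved together. All 6 genes of the MCM2-7 ring, whose subunits are present in equal number in the complex, fell in both arms, and in each of them every treated library lay below every control library. Their log2 fold changes spanned -1.02 to -0.72 after knockdown (median -0.91) and -0.94 to -0.75 after OSMI-1 (median -0.77). MCM3, encoded at chr1:20802968-20820312, was the most abundant of them per transcript length in ShLuc and ShOgt, and Mcm6 was in Vehicle and OSMI-1. Mcm3 counts ranged from 4046 to 4735 with a median of 4454 in ShLuc and were 2258, 2629, 2919, 2516 and 2116 in ShOgt. The lowest control exceeded the highest treated library, ShOgt 3, by a wide margin (1.79-fold, log2 fold change -0.84 ± 0.08 (SE), limma adjusted p = 1.59e-07). Vehicle ranged from 1438 to 1661 with a median of 1513 and OSMI-1 held 913, 955, 984, 819.7 and 927. The OSMI-1 values lay close together, with OSMI-1 5 lowest, and apart from the controls (1.68-fold, log2 fold change -0.75 ± 0.07 (SE), limma adjusted p = 2.96e-08).

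On the scale of mean normalized counts per kilobase of annotated transcript, the ShLuc levels were 1467 for Mcm3, 1369.5 for Mcm6, 1347 for Mcm2, 1192 for Mcm7, 955 for Mcm5 and 561 for Mcm4. In ShOgt they were 821, 705, 701, 658, 473 and 339 in the same order of genes. Mcm4 was the lowest in both groups. In the inhibitor arm the levels of Mcm6 were 592 in Vehicle and 333 in OSMI-1, and those of Mcm3 509 and 303 on the same scale. Mcm5, whose promoter carries overlapping words, had the largest fall of the 6 in each arm (log2 fold change -1.02 ± 0.08 (SE), limma adjusted p = 2.74e-08 after knockdown and log2 fold change -0.94 ± 0.10 (SE), limma adjusted p = 4.87e-07 after OSMI-1). No MCM2-7 gene differed between the arms by the test described below.

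MCM8, a related helicase that acts with MCM9 in recombination repair, was much less abundant. Mcm8 ranged from 252 to 328 with a median of 292 in ShLuc and was 109, 158, 133, 191 and 137 in ShOgt. The groups were apart, with ShOgt 5 the highest treated library (2.00-fold, log2 fold change -1.02 ± 0.14 (SE), limma adjusted p = 2.13e-05). Vehicle ranged from 103 to 153 with a median of 132 and OSMI-1 held 77.5, 68.9, 89.5, 105 and 75.6. OSMI-1 5 lay above the lowest Vehicle library, so these overlapped (1.56-fold, log2 fold change -0.64 ± 0.15 (SE), limma adjusted p = 0.00237).

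The factors that turn the loaded ring into an active helicase fell further than the ring itself after knockdown, as a list median. All 6 (Cdc45, the GINS subunits Gins1 to Gins4, and Mcm10) fell after knockdown, with a median log2 fold change of -1.14, and 5 fell after OSMI-1, with a median of -0.88. CDC45 bridges the ring and GINS. Cdc45 ranged from 925 to 1131 with a median of 997 in ShLuc and was 412, 541, 452, 450.3 and 397 in ShOgt. ShOgt 2 was the highest treated library and still far below the controls (2.25-fold, log2 fold change -1.17 ± 0.09 (SE), limma adjusted p = 2.37e-08). Vehicle ranged from 348 to 522 with a median of 439 and OSMI-1 held 253, 230.1, 177, 149 and 209.6. The spread within Vehicle was wide, yet the groups were apart (2.11-fold, log2 fold change -1.08 ± 0.13 (SE), limma adjusted p = 1.63e-06).

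Gins1 had the largest fall of the 47 members after knockdown. From a ShLuc range from 135 to 223 with a median of 197, it was at 48.9, 44.4, 69.2, 45.9 and 82.2 in ShOgt. No treated library reached the lowest control, a 3.23-fold drop (log2 fold change -1.70 ± 0.20 (SE), limma adjusted p = 3.18e-06). In Vehicle Gins1 ranged from 63.1 to 106 with a median of 91.0, and the OSMI-1 libraries held 31.9, 43.6, 41.3, 56.1 and 32.1. These were apart as well (2.17-fold, log2 fold change -1.11 ± 0.19 (SE), limma adjusted p = 1.48e-04). Gins2 fell 2.15-fold after knockdown and 1.67-fold after OSMI-1.

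Gins3 had a larger fall after knockdown than after OSMI-1, and the difference between the arms, given below, passed under 21 of 30 alternatives. In ShLuc Gins3 ranged from 187 to 224 with a median of 205, and in ShOgt it was 84.5, 127, 80.5, 90.7 and 92.6. ShOgt 2 stood above the other treated libraries and all 5 lay below the controls (2.16-fold, log2 fold change -1.12 ± 0.15 (SE), limma adjusted p = 1.27e-05). In the inhibitor arm Vehicle ranged from 65.6 to 127 with a median of 97.3 and OSMI-1 held 68.4, 60.8, 59.0, 88.3 and 61.9. The groups overlapped and the change did not pass (log2 fold change -0.46 ± 0.18 (SE), limma adjusted p = 0.0641). It passed by edgeR (adjusted p = 0.0469), by DESeq2 (0.0350), without Vehicle 5 (0.0272) and without OSMI-1 5 (0.0315).

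Gins4 had the smallest change of the GINS genes in both arms. Its counts ranged from 764 to 943 with a median of 863 in ShLuc and were 663, 905, 672, 640.2 and 616 in ShOgt, where ShOgt 2 lay inside the control range. The call after knockdown (log2 fold change -0.32 ± 0.10 (SE), limma adjusted p = 0.0205) was lost without ShOgt 1 (adjusted p = 0.0523), ShOgt 5 (0.0543) or ShOgt 6 (0.0564), and without ShLuc 1, ShLuc 3 and ShOgt 3 together (0.0917). Vehicle ranged from 370.0 to 431 with a median of 413 and OSMI-1 held 356, 341, 355, 331 and 339. The OSMI-1 libraries lay just below the lowest control (log2 fold change -0.23 ± 0.08 (SE), limma adjusted p = 0.043). That call was lost under 11 of 19 alternatives, at adjusted p from 0.051 to 0.13, including leaving out any OSMI-1 library or Vehicle 1, 3, 5 or 6.

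MCM10, which helps the assembled helicase start unwinding, fell strongly in both arms. Mcm10 ranged from 616 to 917 with a median of 743 in ShLuc and was 314, 378, 325, 369 and 259 in ShOgt. ShOgt 6 was the lowest and the groups were apart (2.29-fold, log2 fold change -1.19 ± 0.12 (SE), limma adjusted p = 3.03e-07). Vehicle ranged from 217 to 302 with a median of 244 and OSMI-1 held 128, 119, 98.5, 136 and 152. Here OSMI-1 6 was the highest treated library, also below every control (2.01-fold, log2 fold change -1.01 ± 0.13 (SE), limma adjusted p = 2.62e-06).

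All 4 genes of polymerase alpha and primase, the complex that lays the RNA-DNA primer, fell in both arms with every treated library below every control. List medians were -0.78 after knockdown and -0.68 after OSMI-1. POLA2 is the regulatory subunit. Pola2 ranged from 895 to 1146 with a median of 1043 in ShLuc and was 603, 642, 662, 569 and 658 in ShOgt. Treated values lay within a narrow band under the controls (1.66-fold, log2 fold change -0.72 ± 0.09 (SE), limma adjusted p = 3.22e-06). In Vehicle Pola2 ranged from 312 to 390.4 with a median of 348 and in OSMI-1 it was 259, 212, 249, 172 and 257. OSMI-1 5 was the lowest (1.52-fold, log2 fold change -0.62 ± 0.11 (SE), limma adjusted p = 2.79e-04). The catalytic subunit Pola1, whose promoter word is shown above, fell 1.83-fold after knockdown and 1.28-fold after OSMI-1. The catalytic primase subunit Prim1 had log2 fold changes of -0.62 and -0.83, and the large primase subunit Prim2 of -0.84 and -0.75.

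The 5 genes of the strand-extending polymerases fell in both arms, with list medians of -0.87 and -0.76. Pold2, an accessory subunit of polymerase delta, ranged from 2452 to 2902 with a median of 2586 in ShLuc and was 1276, 1485, 1597, 1501 and 1259.9 in ShOgt. ShLuc 1 was the highest control, and the groups were apart (1.82-fold, log2 fold change -0.87 ± 0.08 (SE), limma adjusted p = 8.55e-08). Vehicle ranged from 755 to 838 with a median of 784 and OSMI-1 held 465, 496, 445, 422 and 509. No OSMI-1 library came near the lowest control (1.69-fold, log2 fold change -0.76 ± 0.08 (SE), limma adjusted p = 9.34e-08). Pold1, the catalytic subunit of polymerase delta, had nearly the same log2 fold change in each arm (-0.87 and -0.87), and Pold3, its partner that binds the clamp, had -0.42 and -0.72. Polymerase epsilon, which copies the leading strand, gave -0.87 and -0.67 for the catalytic subunit Pole and -0.77 and -1.01 for Pole2. For Pole, ShOgt 3 lay inside the control range, which ShLuc 3 widened downwards, and OSMI-1 6 was well below the other OSMI-1 libraries.

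The clamp and its loader split. PCNA is the ring that tethers polymerases to DNA, and the loader is RFC1 with the small subunits RFC2 to RFC5. In each arm 5 of these 6 genes fell and Rfc1 did not pass, with list medians of -0.75 after knockdown and -0.42 after OSMI-1. Pcna went from 2328 ± 239.8 (SD, n = 6) to 1323 ± 170.3 (n = 5) normalized counts after knockdown (log2 fold change -0.82 ± 0.09 (SE), limma adjusted p = 1.69e-06) and from 1188 ± 70.7 to 880.1 ± 38.0 after OSMI-1 (log2 fold change -0.43 ± 0.07 (SE), limma adjusted p = 5.04e-05).

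Rfc2, at chr5:134581366-134601805 on GRCm38, had the largest difference between the arms of all members. In ShLuc it ranged from 2629 to 3484 with a median of 2722, and in ShOgt it was 1059, 1273, 1194, 1437 and 977. The highest treated library was far under the lowest control, a 2.42-fold drop (log2 fold change -1.28 ± 0.10 (SE), limma adjusted p = 1.27e-08). Vehicle ranged from 765 to 1015 with a median of 946 and OSMI-1 held 699, 741, 845, 688 and 724. OSMI-1 4 lay inside the Vehicle range and the drop was 1.24-fold (log2 fold change -0.31 ± 0.08 (SE), limma adjusted p = 0.0089). The other small subunits gave log2 fold changes of -0.45 and -0.40 for Rfc3, -0.90 and -0.70 for Rfc4, and -0.68 and -0.90 for Rfc5, knockdown first.

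In a 3′UTR of GENCODE M21, Rfc2 and Gins3 hold the 7-base word AACATGC and the other 45 members do not. This word was picked in an earlier analysis of these data, after values were seen, from genes with large falls after knockdown. It is in a 3′UTR of 10.2% of the 11348 tested genes that have one. The median knockdown log2 fold change was -1.20 for these 2 members and -0.84 for the other 45, of which 40 fell. Because the word was picked from genes with large falls in these data, the medians are not an independent comparison. Its part in the fall of Rfc2 and Gins3 was not tested.

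RFC1, the large subunit that is specific to the standard loader, did not pass in either arm. Rfc1 ranged from 619.6 to 942 with a median of 674 in ShLuc and was 523, 618, 623, 707 and 622 in ShOgt. The groups overlapped (log2 fold change -0.21 ± 0.11 (SE), limma adjusted p = 0.166). Vehicle ranged from 282 to 355 with a median of 317 and OSMI-1 held 314, 246, 266, 298 and 310.4, again with overlap (log2 fold change -0.16 ± 0.10 (SE), limma adjusted p = 0.254).

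Both genes of lagging strand maturation fell in both arms. FEN1 trims the displaced flap of each Okazaki fragment and LIG1 seals the nick. Fen1 ranged from 2646 to 3169 with a median of 2862 in ShLuc and was 1548, 1621, 1873, 1788 and 1419 in ShOgt. The groups were apart (1.77-fold, log2 fold change -0.83 ± 0.08 (SE), limma adjusted p = 2.07e-07). Fen1 in Vehicle ranged from 785 to 925 with a median of 875 and in OSMI-1 it was 589.6, 569, 498, 519 and 564. No OSMI-1 library reached the controls (1.57-fold, log2 fold change -0.65 ± 0.08 (SE), limma adjusted p = 1.20e-06). Lig1 gave -0.86 and -0.71 on the log2 scale.

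Replication protein A, the trimer that coats single-stranded DNA, fell in its larger subunits, Rpa1 and Rpa2. Rpa1 ranged from 3674 to 4091 with a median of 3887 in ShLuc and was 2223, 2392, 2496, 2360.4 and 2552 in ShOgt. Both groups were tight and apart (1.62-fold, log2 fold change -0.69 ± 0.06 (SE), limma adjusted p = 8.35e-08). Vehicle ranged from 1647 to 1894 with a median of 1747 and OSMI-1 held 1281, 1432, 1359, 1197 and 1375. The drop was smaller and still without overlap (1.32-fold, log2 fold change -0.40 ± 0.07 (SE), limma adjusted p = 8.79e-05). Rpa2 fell in both arms (-0.75 and -0.65 on the log2 scale).

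Rpa3, the smallest subunit, did not pass in either arm. It ranged from 169 to 270.2 with a median of 243 in ShLuc and was 265, 267, 215, 259 and 305 in ShOgt, the only positive estimate among the 47 after knockdown (log2 fold change 0.21 ± 0.15 (SE), limma adjusted p = 0.305). The ranges overlapped. Vehicle ranged from 119 to 166 with a median of 147 and OSMI-1 held 121, 87.2, 129.5, 144 and 168. These spread widely in both groups and overlapped (log2 fold change -0.17 ± 0.15 (SE), limma adjusted p = 0.469).

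**Figure D3:**
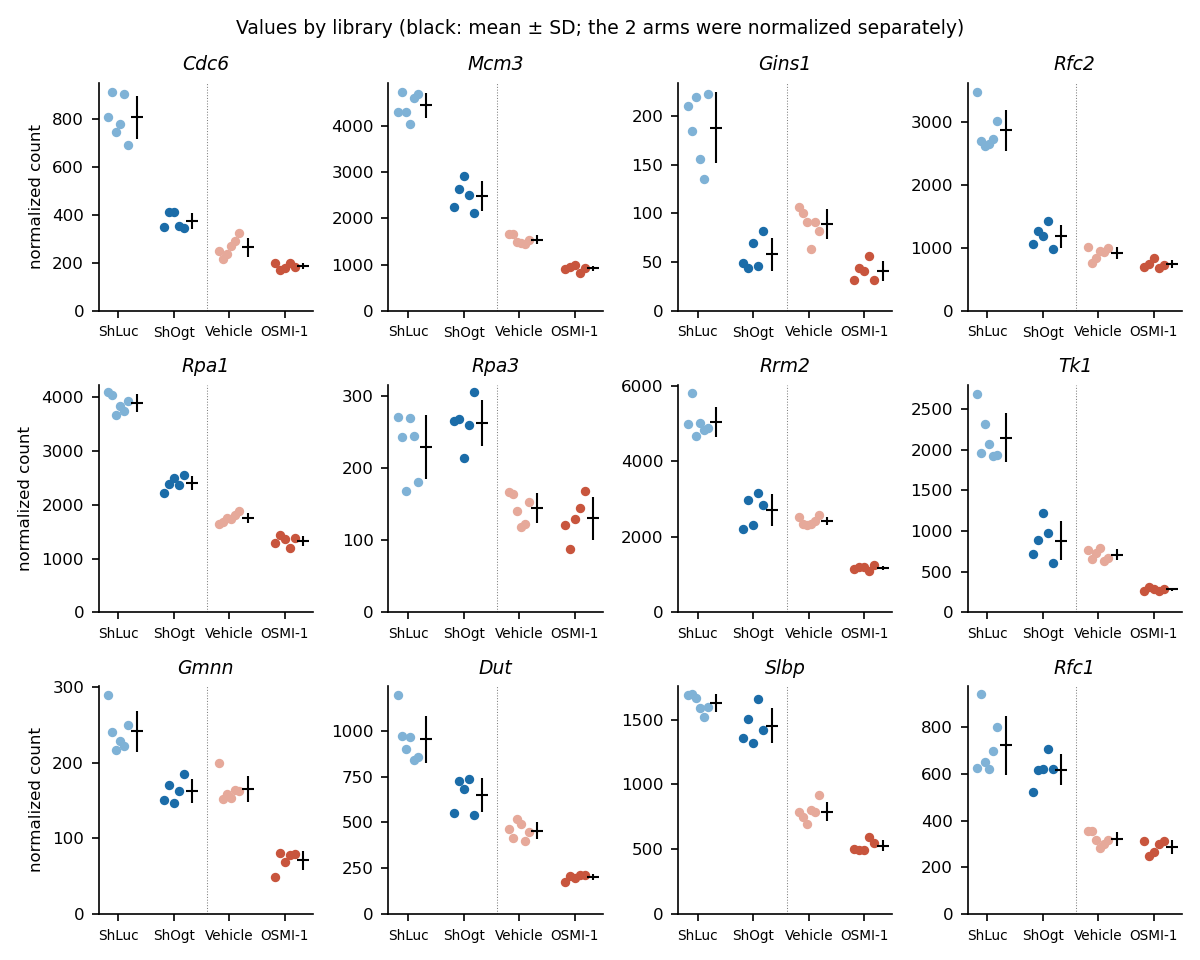
Normalized counts of 12 members in every library, 1 point per library, with the mean ± SD in black. The arms were normalized separately, so heights compare within an arm. Tk1, Rrm2 and Gins1 separate in both arms, Rpa3 and Rfc1 overlap in both, and Rfc2 separates after knockdown but not after OSMI-1.

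The nucleotide supply genes were the deepest group after OSMI-1. All 5 fell in both arms with every treated library below every control, and the median log2 fold change was -0.80 after knockdown and -1.08 after OSMI-1. After OSMI-1 all 5 fell to less than 50%, and after knockdown only Tk1 did. Ribonucleotide reductase, which turns ribonucleotides into deoxyribonucleotides, is made of RRM1 and RRM2. Rrm2, at chr12:24708241-24714146, was the most abundant member of the set per transcript length in ShLuc, ShOgt and Vehicle, and second to Pcna in OSMI-1. It ranged from 4674 to 5798 with a median of 4924 in ShLuc and was 2208, 2969, 2309, 3174 and 2856 in ShOgt. ShLuc 2 was the highest control and the groups were apart (1.86-fold, log2 fold change -0.91 ± 0.09 (SE), limma adjusted p = 3.12e-07). Vehicle ranged from 2315 to 2583 with a median of 2380.3 and OSMI-1 held 1150.1, 1192, 1195, 1092 and 1246. Both groups were narrow and far apart (2.06-fold, log2 fold change -1.04 ± 0.06 (SE), limma adjusted p = 2.12e-11). Its partner Rrm1 gave -0.80 and -1.07.

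TK1 salvages thymidine and is made mainly by dividing cells. Tk1, at chr11:117815526-117826092, ranged from 1919 to 2682 with a median of 2015 in ShLuc and was 715, 896, 1217, 981 and 602 in ShOgt. ShOgt 3 was the highest and ShOgt 6 the lowest treated library (2.43-fold, log2 fold change -1.31 ± 0.14 (SE), limma adjusted p = 7.70e-07). Vehicle ranged from 634 to 789.7 with a median of 702 and OSMI-1 held 264, 316, 284, 265 and 286. This was the largest fall of the 47 members after OSMI-1 (2.51-fold, log2 fold change -1.32 ± 0.09 (SE), limma adjusted p = 7.73e-11), and the log2 fold changes of the arms differed by 0.01 ± 0.16 (SE), adjusted p = 0.978.

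TYMS makes thymidylate, and DUT removes dUTP and so yields its precursor. Tyms ranged from 1055 to 1545 with a median of 1137 in ShLuc and was 703, 835, 916, 809.9 and 784 in ShOgt. ShLuc 1 stood high, and the groups were apart (1.47-fold, log2 fold change -0.55 ± 0.10 (SE), limma adjusted p = 3.03e-04). Vehicle ranged from 433 to 552 with a median of 508 and OSMI-1 held 197, 244, 252, 255 and 236, a clear gap (2.12-fold, log2 fold change -1.08 ± 0.09 (SE), limma adjusted p = 1.02e-08). Tyms is at chr5:30058202-30073617, and a pseudogene entry of it was at most at a mean of 0.206 normalized counts in either arm.

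Dut ranged from 842 to 1193 with a median of 932 in ShLuc and was 553, 723, 685, 737 and 542 in ShOgt. ShLuc 1 was again the highest control and no treated library reached the lowest (1.47-fold, log2 fold change -0.56 ± 0.11 (SE), limma adjusted p = 5.69e-04). Vehicle ranged from 399 to 517 with a median of 455 and OSMI-1 held 175, 208, 197, 215 and 214. The fall was deeper here and the treated libraries close together (2.26-fold, log2 fold change -1.17 ± 0.10 (SE), limma adjusted p = 5.13e-09).

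Among the histone and chromatin assembly genes, the subunits of CAF-1, which places new histones behind the fork, fell most. Chaf1a had log2 fold changes of -1.12 and -0.94, and Chaf1b of -1.15 and -0.80. SLBP binds the stem-loop of replication-dependent histone mRNAs. Slbp ranged from 1522 to 1699 with a median of 1634 in ShLuc and was 1362, 1503, 1318, 1663 and 1420.2 in ShOgt. ShOgt 5 lay inside the control range and the change did not pass (log2 fold change -0.17 ± 0.07 (SE), limma adjusted p = 0.0889). Without ShOgt 5 it did (adjusted p = 0.0341, log2 fold change -0.22). Vehicle ranged from 697 to 917 with a median of 786 and OSMI-1 held 498, 497, 495, 593 and 549. All OSMI-1 libraries lay below the controls (1.5-fold, log2 fold change -0.58 ± 0.08 (SE), limma adjusted p = 1.37e-05).

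The size of the change was then compared between the arms, gene by gene, as the difference of the fitted log2 fold changes. The arms differ in agent, in the virus and in time, so a difference belongs to the arm and not to the agent alone. Of the 47 members 10 differed at an adjusted p under 0.05, and of all 11269 genes tested in both arms 23.9% did, so the members' share was near the background. Among the 10, Cdc6, Gins3, Pola1, Pcna, Rfc2 and Rpa1 fell further after knockdown. Gmnn, Tyms, Dut and Slbp fell further after OSMI-1.

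For Rfc2 the knockdown log2 fold change minus the OSMI-1 one was -0.97 ± 0.13 (SE), adjusted p = 1.97e-07. Gins3 differed by -0.66 ± 0.23 (SE), adjusted p = 0.0327, Cdc6 by -0.60 ± 0.15 (SE), adjusted p = 0.00267, Pola1 by -0.51 ± 0.16 (SE), adjusted p = 0.0203, Pcna by -0.39 ± 0.11 (SE), adjusted p = 0.0119 and Rpa1 by -0.29 ± 0.09 (SE), adjusted p = 0.015. In the other direction Gmnn differed by 0.66 ± 0.19 (SE), adjusted p = 0.0105, Dut by 0.61 ± 0.15 (SE), adjusted p = 0.00169, Tyms by 0.53 ± 0.14 (SE), adjusted p = 0.00325 and Slbp by 0.41 ± 0.11 (SE), adjusted p = 0.00491. All but Gins3 and Pola1 passed under each of the 30 alternatives. Pola1 lost the call without ShOgt 1 (adjusted p = 0.0541). Gins3 lost it under 9, by edgeR, with the replicate block, and without ShLuc 6, ShOgt 1, ShOgt 3, Vehicle 4, Vehicle 5, OSMI-1 5 or all libraries that stand apart (adjusted p up to 0.0803).

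**Figure D4:**
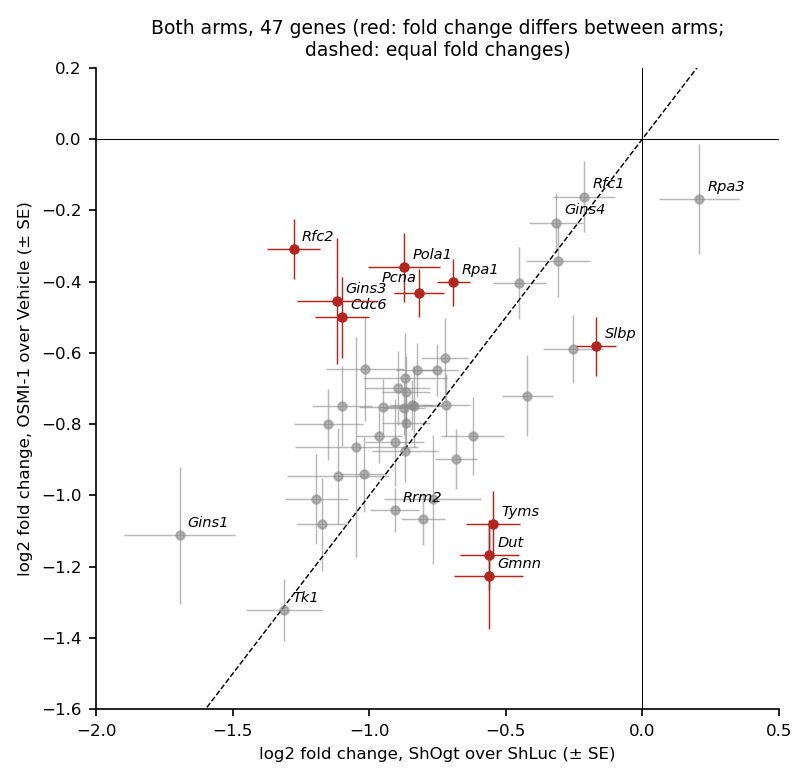
Log2 fold change after OSMI-1 against that after knockdown for the 47 members, with standard errors and the line of equal change. The 10 genes in red differ between the arms at an adjusted p under 0.05, and Rfc2 lies farthest from the line.

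The members were also set out by whether the promoter holds an E2F-type word, and the difference was not tested. After knockdown the 15 members with a word had a median log2 fold change of -0.87 and all 15 fell, and the 24 without one had -0.78, with 19 lower. After OSMI-1 the medians were -0.75 and -0.75, with 14 of 15 and 22 of 24 lower. The largest faller of the nucleotide genes, Tk1, and both reductase genes are among those without one of these words in the window.

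Other genes of the same processes were read from lists not drawn from the members. Of 68 such genes, 32 fell and 4 rose after knockdown (median -0.28), and 37 fell and 3 rose after OSMI-1 (median -0.36). For these counts and those of the lists that follow, the shares over all genes tested were 16.4% lower and 15.4% higher after knockdown and 13.2% lower and 11.6% higher after OSMI-1. No list was tested against them, and values are given knockdown first. In the list of the origin complex and initiation, 4 of 10 fell after knockdown and 3 of 10 after OSMI-1. By edgeR 3 fell after knockdown and 3 after OSMI-1, and by DESeq2 4 and 5. Ticrr (-0.78 and -1.16) and the kinase Cdc7 (-0.52 and -0.69) fell in both arms. The initiation helicase Recql4 (-1.6 and -1.26) and the scaffold Topbp1 (-0.81 and -0.25) passed after knockdown and not after OSMI-1. Recql4 was low in counts, at 48.0, 62.1, 55.1, 2.13 and 21.8 in ShOgt, with ShOgt 5 far below the others. The ShLuc range of 41.2 to 128 overlapped these, and the means differed 2.2-fold (limma adjusted p = 0.0359). Dbf4, the activator of CDC7 (-0.61 and -1.55), passed after OSMI-1 and not after knockdown (limma adjusted p = 0.0516). By the test of the difference between the arms, Dbf4 (adjusted p = 0.0341) and Topbp1 (0.0285) differed and Recql4 did not pass (0.807).

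Of 17 fork and termination genes, 9 fell and 2 rose after knockdown, and 12 fell and none rose after OSMI-1 by limma, edgeR or DESeq2 (1 was higher at an unadjusted p under 0.05). Dscc1, of an alternative clamp loader, gave -1.14 and -1.17, and Wdhd1, which links the helicase to polymerase alpha, -1.0 and -0.98. The topoisomerase Top2a fell in both arms (-0.85 and -1.11). The polymerase epsilon subunit Pole3 fell after knockdown (-1.03) and did not pass after OSMI-1 (-0.25), and the arms differed (adjusted p = 0.00939). The risers after knockdown were Pold4, the smallest subunit of polymerase delta, which went from 272 ± 34.4 to 506 ± 45.4 normalized counts (log2 fold change 0.90 ± 0.11 (SE), limma adjusted p = 5.70e-06), and the topoisomerase Top1 (0.36). After OSMI-1 they had 0.31 and 0.12 and did not pass. Both were named after their values were seen.

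Deoxynucleotide synthesis genes outside the set fell in 5 of 11 cases in each arm, among them Shmt1 (-0.89 and -0.73) and the kinase Dck (-0.63 and -0.90). The mitochondrial thymidine kinase Tk2, which also works outside S phase, rose after OSMI-1 (0.47) and did not pass after knockdown (0.19). Purine and pyrimidine de novo genes fell in 9 of 15 cases after knockdown, and 1 rose (Ctps2, 0.40, which had -0.20 after OSMI-1 and did not pass). After OSMI-1 11 of 15 fell. Umps (-0.74 and -0.46), Atic (-0.69 and -0.44), Impdh1 (-0.68 and -0.72) and Ctps (-0.34 and -0.71) fell in both arms. Pfas (-0.78 and -0.31) passed after knockdown alone and Ppat (-0.24 and -0.61) after OSMI-1 alone, and neither passed the test of the difference between the arms (adjusted p = 0.060 and 0.0755). Histone chaperones fell in 4 of 6 cases after knockdown and in 6 of 6 after OSMI-1, among them Asf1b (-0.65 and -1.02), Nasp (-0.56 and -1.01) and Hat1 (-0.73 and -0.68).

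Of 9 repair and translesion polymerases and ligases, 1 fell (Polh, -1.0) and 1 rose (Polk, 0.81) after knockdown. After OSMI-1 none fell by limma, edgeR or DESeq2 (1 was lower at an unadjusted p under 0.05), and Rev3l (0.89) and Polk (0.71) rose. Polh had -0.61 after OSMI-1 and Rev3l -0.20 after knockdown, and neither passed. The difference between the arms was past the threshold for Rev3l (adjusted p = 4.19e-05) and not for Polh (0.469). These counts lie near the shares over all genes tested.

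**Figure D5:**
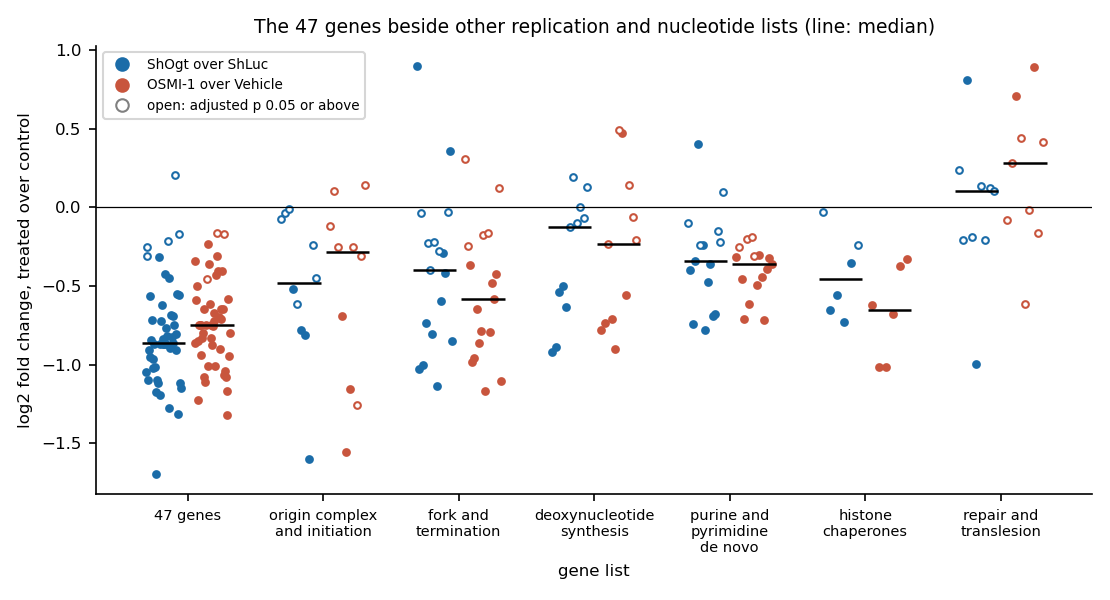
Log2 fold changes of the 47 members beside 68 other genes in 6 lists, 1 point per gene with the list median as a line (blue: knockdown, red: OSMI-1, open: not past the adjusted p of 0.05). The members have the lowest median in each arm, and the repair and translesion list has medians above 0.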

How the data were processed

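Poly(A) RNA was sequenced in 22 libraries (6 ShLuc, 5 ShOgt, 6 Vehicle and 5 OSMI-1), grouped by the sample labels. The extract protocol names strand-specific libraries and the series design text Smart-Seq2, which was not settled here. STAR, RSEM and DESeq2 are named in the submitters' processing notes, and their versions are not given in the sources used here. The notes name a human build, whereas the tables carry mouse symbols, so coordinates here come from other annotation.

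Per the file headers, the authors deposited 1 table per arm with a normalized read count signal per library, a base mean, a log2 fold change with standard error, a test statistic (a score), and raw and adjusted p-values. Their fold change is treated over control in the knockdown table and the reverse in the inhibitor table, as checked on the library values. By the authors' deposited tables, 43 members are lower after knockdown and 44 after OSMI-1 at an adjusted p under 0.05, and 0 higher. All values are whole multiples of a step per library (100% within 0.001), from which reads were recovered. No libraries agree within sampling noise (smallest chi-square per degree of freedom 5.86 and 3.74).

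limma 3.58.1 with an intensity trend (R 4.3.3) was fitted per arm to log2(normalized count + 1), which understates changes of low genes, after edgeR 4.0.16 filterByExpr on the reads (minimum count 10, total 15). The test was two-sided, with Benjamini-Hochberg adjustment over all genes tested and a threshold of 0.05. Differences between arms used the summed squared standard errors with Satterthwaite degrees of freedom. Alternatives were edgeR and DESeq2 1.42.0 on the reads, TMM scaling, pseudocounts of 0.5 and 8, no filter, the replicate block, and libraries left out. The fit was checked on simulated data. Transcript lengths, 3′UTRs and gene coordinates came from GENCODE M21 (GRCm38), so levels per kilobase rest on an annotation that the authors may not have used.

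The members and lists were chosen with earlier results of these data known, so no test over the list was made. Values in every library are given for the member of each group with the highest mean normalized count over all 22 libraries, a mean that pools the separately normalized arms, the 5 largest and the 5 smallest falls of each arm and the 5 largest differences between arms. Of the other lists, up to 3 called genes with the largest changes are named per arm, except 1 that is counted but not reported by name here. Outside that rule, the risers Pold4, Top1, Tk2 and Ctps2 were named after their values were seen.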

Additional observations from a re-analysis of the deposited data

Results flagged for a closer look

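In 14 of 188 combinations of a member and a group, the highest or lowest library stood apart from the rest of its group by more than the 95% limit of Dixon's test, and chance gives about 1 in 20. ShLuc 1 stood high in 5 members: Pold2 at 2902 normalized counts (other ShLuc libraries 2452 to 2607), Rfc5 at 1869, Rpa2 at 2356, Tyms at 1545 (others 1055 to 1193) and Dut at 1193. In ShLuc 2 Rrm2 was high at 5798, and in ShLuc 3 Rrm1 was low at 3376. ShOgt 2 was high in Gins3 at 127 and in Gins4 at 905, and ShOgt 6 was high in Orc6 at 452 (others 355 to 379.9). Vehicle 1 was high in Gmnn at 200.2 and in Mcm6 at 1997, Vehicle 4 was low in Mcm2 at 1172, and OSMI-1 6 was low in Pole at 134. The calls of Gins4, Orc6, Orc2 and Slbp after knockdown depended on single libraries, and that of Orc2 also on the method, as given with their values in the report.

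The fold changes of 10 of the 47 members differed between the arms by a test of the difference. As the knockdown log2 fold change minus the OSMI-1 one, it was -0.60 for Cdc6, -0.66 for Gins3, -0.51 for Pola1, -0.39 for Pcna, -0.97 for Rfc2 and -0.29 for Rpa1, and 0.66 for Gmnn, 0.53 for Tyms, 0.61 for Dut and 0.41 for Slbp. Over all 11269 genes tested in both arms 23.9% differed, so the members' share was near the background. The arms also differ in virus and time.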

How the results depend on the processing

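Under the 8 alternative settings other than leaving out single libraries, the members lower after knockdown numbered 42 to 43 and after OSMI-1 41 to 45, and 0 were higher in each. Medians ran from -0.88 to -0.84 and from -0.76 to -0.68. Leaving out each library in turn gave 41 to 43 and 42 to 44 members lower, 0 higher, medians of -0.88 to -0.81 and -0.77 to -0.72, 29 to 33 and 34 to 39 of the other genes lower, and 9 to 12 members that differ between the arms. The same 41 of 42 members lower after knockdown, and 41 of 44 after OSMI-1, were lower in each of 19 alternatives, and no member's fold change turned its sign. The calls that changed are given in the report for Orc1, Orc2, Orc6, Gins3, Gins4 and Slbp, and for the arm difference of Gins3 and Pola1. Not called, Orc6, Mcm2, Gins2, Rrm1 and Chaf1b passed the arm difference in 1 to 3 of 30 alternatives. With TTTCCCGC alone as the promoter word the members' share was 17.9% (2.44% of tested genes), and with TTTNNCGC 41.0% (10.1%). The labels state no pairing by replicate number. Correlations of same-numbered deviations ran from -0.01 to 0.35 in the knockdown arm and from -0.14 to 0.06 in the inhibitor arm. ShOgt 2 and ShOgt 3 correlated best with the ShLuc library of their own number. ShOgt 1, 5 and 6 and every OSMI-1 library correlated best with a control of another number. So few correlations cannot decide whether samples were paired. With the replicate block 43 members were lower in each arm and the medians were -0.87 and -0.76, and over all genes 2043 were lower and 1911 higher after knockdown and 1300 and 1076 after OSMI-1. Depth limits Orc1, Pole2, Gins1 and Gins3, the least abundant members, most.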
